A study of Mus musculus with 36 samples.

Results

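The miR-23/27/24 clusters are a pair of short groups of microRNA (miRNA) genes, each of which yields a miR-23, a miR-27 and a miR-24. Their 10 members here are the mature miRNAs of both clusters that were listed by name, whatever their level: mmu-miR-23a-3p, mmu-miR-23b-3p, mmu-miR-23b-5p, mmu-miR-27a-3p, mmu-miR-27a-5p, mmu-miR-27b-3p, mmu-miR-27b-5p, mmu-miR-24-3p, mmu-miR-24-1-5p and mmu-miR-24-2-5p, named below without the prefix for mouse. They are 10 of the 1915 mature miRNAs that were counted, and all 10 were found in the table. Reads came from miRNA-seq of whole mouse kidneys in 2 models of autosomal dominant polycystic kidney disease on the C57BL/6 background. Animals called WT here carried the floxed allele only, Pkd1f/f or Pkd2f/f, and those called KO carried the same floxed allele together with HoxB7-Cre. Kidneys were taken at postnatal day 1, 3 or 7 (P1, P3, P7), with n = 3 libraries for each model, age and genotype, 36 in all. The HoxB7 promoter directs Cre to the collecting duct, so the other cells of a KO kidney keep the targeted gene. Pkd1 mice and Pkd2 mice below stand for the animals of either model.

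In each cluster the hairpins lie in the order miR-23, miR-27, miR-24 and are thought to be cut from a shared primary transcript. A hairpin has a 5p and a 3p arm, and as a rule one arm is loaded into the silencing complex and kept while the other is mostly lost. Bases 2 to 8 of the mature miRNA, the seed, do most of the pairing with target mRNAs. The clusters are known from work on endothelium, muscle, fat and blood cells, and miR-23b, miR-27b and miR-24 are found widely in epithelia.

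In the GRCm38.p6 annotation the cluster of miR-23a, miR-27a and miR-24-2 spans 404 bases of chromosome 8 on the plus strand. Mir23a is at chr8:84208518-84208592 and Mir27a at chr8:84208672-84208758, and no other annotated gene overlaps them. Mir24-2, at chr8:84208815-84208921, overlaps an exon of the long noncoding RNA gene Gm26532 and lies opposite Mir3074-2. The cluster of miR-23b, miR-27b and miR-24-1 spans 792 bases of chromosome 13, also on the plus strand, inside the protein-coding gene 2010111I01Rik and opposite an intron of Fancc. Mir23b, at chr13:63300484-63300557, is intronic in 2010111I01Rik. Mir27b, at chr13:63300712-63300784, and Mir24-1, at chr13:63301208-63301275, overlap an exon of at least 1 of its transcripts, and Mir3074-1 lies opposite Mir24-1.

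The mature sequences are shown because several members differ by few bases, which bears on how their reads can be told apart. Sequences are those of RefSeq for GRCm38.p6, where 9 of the 10 members had an entry, and are written 5′ to 3′ with the seed in capitals. miR-23b-3p had none, so its likeness to miR-23a-3p was not compared, and how well their reads are told apart is not known here. The miR-23a and miR-27 3p arms, and the miR-24 3p arm:
miR-23a-3p: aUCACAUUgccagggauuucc
miR-27a-3p: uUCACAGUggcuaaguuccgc
miR-27b-3p: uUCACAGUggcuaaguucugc
miR-24-3p: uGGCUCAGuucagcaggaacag
The 5p arms that the ratios below rest on:
miR-23b-5p: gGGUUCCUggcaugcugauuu
miR-27a-5p: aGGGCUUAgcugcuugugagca
miR-27b-5p: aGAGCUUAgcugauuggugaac
miR-24-1-5p: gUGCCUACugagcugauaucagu
miR-24-2-5p: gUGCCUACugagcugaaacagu
miR-27a-3p and miR-27b-3p share the seed UCACAGU and are identical at 20 of 21 positions. The substitution from miR-27a-3p to miR-27b-3p is C19U, counted from the 5′ end, so reads of the less abundant miR-27a-3p that stem from misread or trimmed miR-27b-3p cannot be told apart from its own in a table of counts. miR-24-3p is the same sequence from both miR-24 hairpins, was listed with 932805 reads under one and 932753 under the other, and cannot be assigned to a cluster. The 5p arms miR-24-1-5p and miR-24-2-5p share their first 16 bases and the seed UGCCUAC and differ towards the 3′ end, so they do separate the hairpins. miR-27a-5p and miR-27b-5p have different seeds.

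The family took between 0.870% and 4.49% of the miRNA reads of a library (median 2.36%), of 12569939 to 32663566 reads. miR-27b-3p alone made up 75.7% to 90.6% of the reads of the family, with a median of 84.0%. Over all libraries it was read 17153099 times, followed by miR-23b-3p with 1183029 reads and miR-24-3p with 932805. miR-27a-3p had 487270 reads, miR-23a-3p 293114 and miR-24-2-5p 91165. The low 5p arms were miR-27b-5p with 30867 reads, miR-24-1-5p with 14522, miR-27a-5p with 13288 and miR-23b-5p with 952. A read covers a whole mature miRNA, so these levels need no correction for length, but ligation can favour some sequences over others and an order between miRNAs carries that limit.

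Within libraries this order was mostly steady, and loosest between miR-24-1-5p and miR-27a-5p. miR-27b-3p exceeded miR-23b-3p in 36 of 36 libraries, and miR-23a-3p exceeded miR-24-2-5p in 36 of 36. miR-23b-3p was above miR-24-3p in 32 libraries, miR-24-3p above miR-27a-3p in 35, and miR-27a-3p above miR-23a-3p in 31. miR-24-1-5p was above miR-27a-5p in 20 of 36, so these neighbours have no fixed order. miR-23b-5p was below miR-27a-5p in 36 of 36 and had between 1 and 72 reads in a library, and its values carry a large counting error. Another 5p arm of the clusters, miR-23a-5p, is outside the list of members and ran between 0 and 2.15 normalised counts per 1000000 (CPM).

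Counts were normalised within each model, so levels in the Pkd1 and Pkd2 models stand side by side and were not tested against each other. Some libraries stood apart from others of their group. miR-10a-5p and miR-10b-5p, a pair of very abundant miRNAs, took 31.4% to 81.0% of the reads, and in Pkd1 mice at P3 the KO libraries held 31.4%, 40.6% and 79.8%. The same share in the Pkd2 WT libraries at P3 was 37.0%, 38.5% and 71.9%, and the library with the highest share, replicate 1, also had miR-23a-3p at 716 CPM against 265 and 291 CPM in replicates 2 and 3. In the Pkd1 P3 KO libraries the highest miR-23a-3p, 443 CPM in replicate 2, stood against 170 and 211 CPM. These libraries enter the P3 comparisons, in which no member passed the test. At P7 the shares in the Pkd2 KO libraries were 41.1%, 74.1% and 57.4%. Replicate 2, with 74.1%, had miR-23a-3p at 1144 CPM against 395 and 735 CPM in replicates 1 and 3. It also had the highest miR-24-2-5p and miR-27a-5p of its group.

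**Figure D1:**
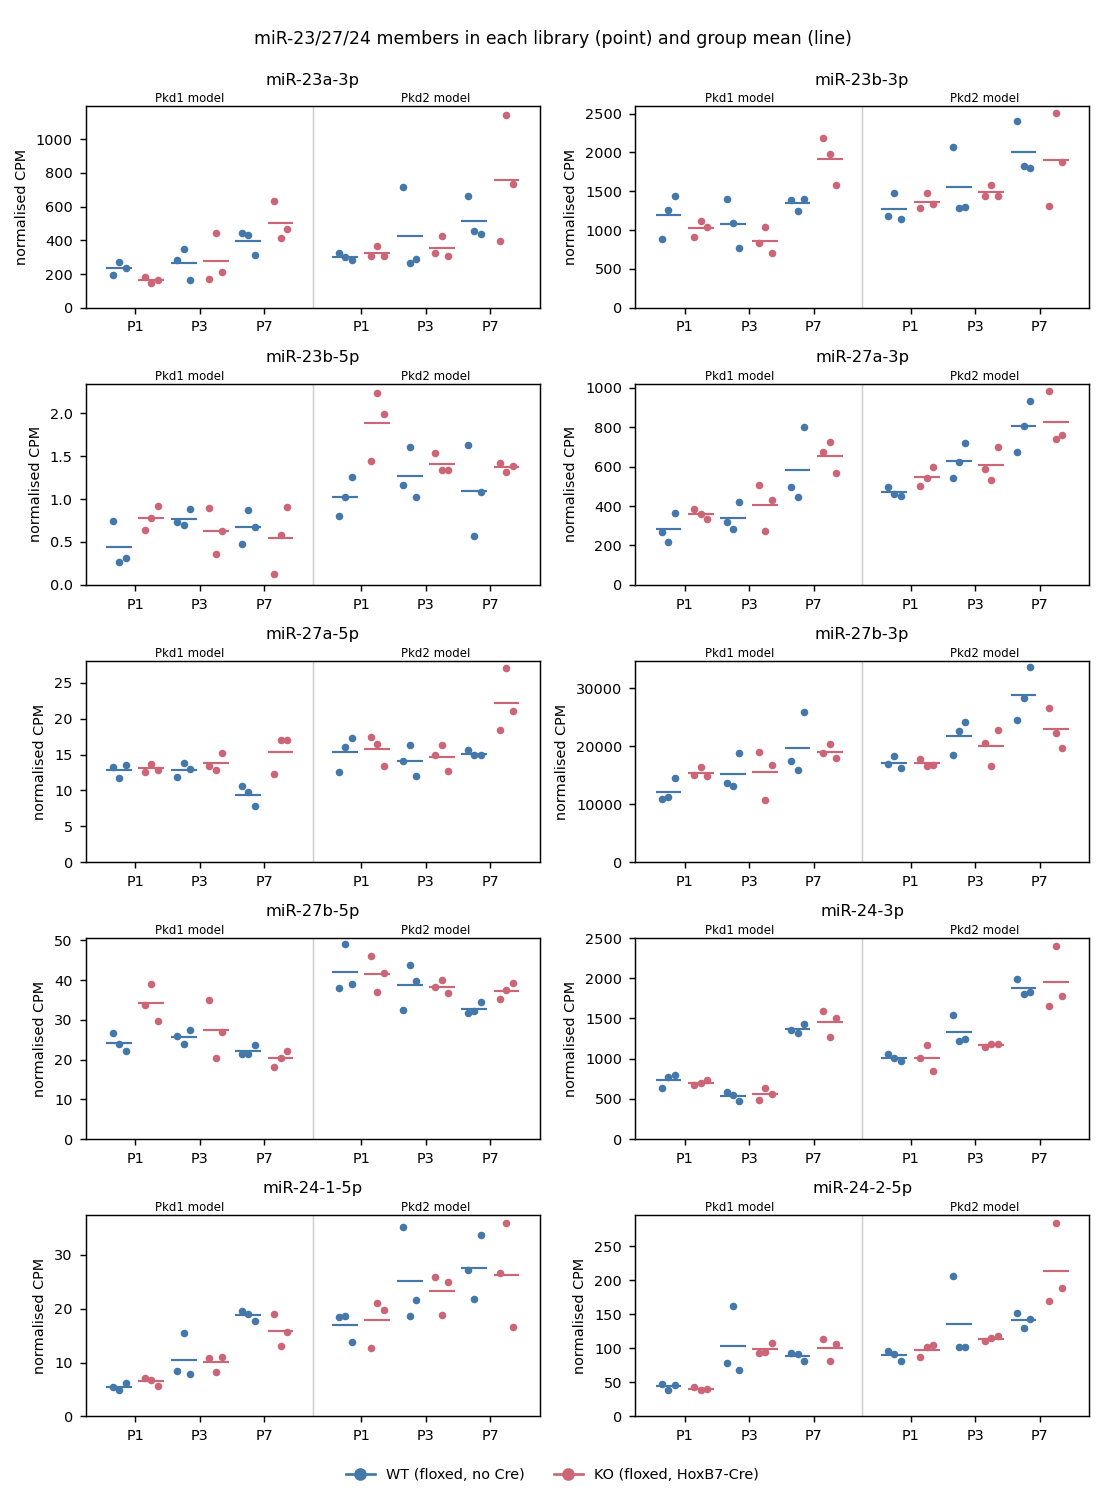
Normalised CPM (linear axes from 0) of the 10 members in each library, by age and model, with WT in blue and KO in red and the group mean as a line. miR-24-3p in Pkd1 WT kidneys sits at 631 to 792 CPM at P1 and 1324 to 1432 CPM at P7, and miR-27a-5p at P7 sits higher in the 3 KO libraries than in the 3 WT libraries of either model.

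The clearest change was with age. Between P1 and P7 in WT kidneys, miR-24-3p, miR-27a-3p and miR-27b-3p rose in both models by edgeR's quasi-likelihood test with Benjamini-Hochberg adjustment. In Pkd1 mice 5 of the 10 members passed, all of them higher at P7, against 21.5% of the 706 miRNAs tested and 10.3% that passed as higher. In Pkd2 mice 4 of 10 passed, again all higher, against 28.3% of the 746 miRNAs tested and 11.4% as higher. The median log2 fold change of the members was 0.73 in Pkd1 mice and 0.68 in Pkd2 mice, beside medians over all miRNAs of -0.03 and -0.06. These are descriptions of the list and not tests of it.

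miR-24-3p, the guide arm of both miR-24 hairpins, rose in both models. In Pkd1 WT kidneys it was at 631, 778 and 792 CPM at P1, at 586, 551 and 478 CPM at P3, and at 1360, 1324 and 1432 CPM at P7. Every P7 library was above every P1 library, while the P3 libraries were the lowest. The log2 fold change from P1 to P7 was 0.90 (SE 0.15, edgeR adjusted p = 0.000888). In Pkd2 WT kidneys it was at 1056, 1007 and 969 CPM at P1, at 1549, 1218 and 1241 CPM at P3, and at 1994, 1801 and 1832 CPM at P7, which on the log2 scale is 0.89 higher (SE 0.16, adjusted p = 0.000976). Here P3 lay between the other ages. Steps to and from P3 were not tested.

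miR-27b-3p, the main product of the chromosome 13 cluster, was at 10812, 11236 and 14435 CPM in the Pkd1 WT kidneys at P1 and at 17441, 15974 and 25835 CPM at P7. The groups did not overlap, but replicate 3 at P7 was far above the others, and its share of miR-10a-5p and miR-10b-5p was 57.9% against 79.9% and 81.0%. The log2 fold change was 0.70 (SE 0.23, edgeR adjusted p = 0.0399), and without that library it was 0.42 with an adjusted p of 0.162. The call was also lost without P1 replicate 1 (0.124), P1 replicate 2 (0.102) or P7 replicate 1 (0.0632), and the adjusted p ran from 0.0388 to 0.858 over the other settings. In Pkd2 WT kidneys the levels were 16856, 18332 and 16259 CPM at P1 and 24472, 28303 and 33599 CPM at P7, which on the log2 scale is 0.75 higher (SE 0.17, adjusted p = 0.00419).

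miR-27a-3p, which differs from it by C19U and shares its seed, rose too, at a far lower level. In Pkd1 WT kidneys it was at 268, 215 and 363 CPM at P1 and at 497, 444 and 802 CPM at P7, where replicate 3 was again the highest. Its log2 fold change was 1.04 (SE 0.27, edgeR adjusted p = 0.0156), and 0.70 with an adjusted p of 0.0725 without P7 replicate 3. Leaving out P1 replicate 2 also ended the call, with 0.88 and an adjusted p of 0.0529. In Pkd2 WT kidneys it rose from 496, 459 and 453 CPM to 676, 806 and 931 CPM (log2 fold change 0.78, SE 0.17, adjusted p = 0.00337).

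The miR-24 5p arms, which tell the hairpins apart, rose from both clusters in Pkd1 mice. miR-24-1-5p, from chromosome 13, was at 5.43, 4.81 and 6.19 CPM in the P1 WT kidneys and at 19.6, 18.9 and 17.8 CPM at P7, the largest change of any member (log2 fold change 1.77, SE 0.26, edgeR adjusted p = 0.00041). miR-24-2-5p, from chromosome 8, went from 47.4, 38.8 and 45.6 CPM to 92.7, 90.9 and 81.4 CPM (log2 fold change 1.01, SE 0.25, adjusted p = 0.0147). In Pkd2 mice the values were 0.70 (SE 0.30, adjusted p = 0.095) for miR-24-1-5p and 0.65 (SE 0.25, adjusted p = 0.0599) for miR-24-2-5p, with no overlap between the ages for either, and neither passed. With DESeq2, which passed 31.8% of all miRNAs there and 25.6% in Pkd1 mice, they did, at an adjusted p of 0.0469 and 0.0196. The difference between the models in this change was not tested.

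The miR-23 arms gave a mixed picture. miR-23b-3p passed in Pkd2 mice, from 1186, 1481 and 1147 CPM at P1 to 2399, 1821 and 1802 CPM at P7 (log2 fold change 0.66, SE 0.23, edgeR adjusted p = 0.0397), and lost the call when P1 replicate 1, P1 replicate 3, P7 replicate 1 or P7 replicate 2 was left out (adjusted p from 0.0383 to 0.135 over the libraries left out). In Pkd1 mice its value was 0.17 (SE 0.23, adjusted p = 0.619). For miR-23a-3p the log2 difference was 0.75 (SE 0.33, adjusted p = 0.114) in Pkd1 mice and 0.77 (SE 0.37, adjusted p = 0.126) in Pkd2 mice. Its P7 libraries were all above its P1 libraries in both models, but it did not pass in either. For non-overlap the background was high, 33.1% of miRNAs in Pkd1 mice and 49.9% in Pkd2 mice, against 7 and 8 of the 10 members.

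For the remaining 5p arms no rise passed. miR-27a-5p in Pkd1 mice was at 13.3, 11.8 and 13.6 CPM at P1 and at 10.6, 9.72 and 7.82 CPM at P7 (log2 fold change -0.46, SE 0.18, edgeR adjusted p = 0.0743), and in Pkd2 mice its value was -0.02 (SE 0.19, adjusted p = 0.958). With DESeq2 the Pkd1 value passed, at -0.54 with an adjusted p of 0.0126. miR-27b-5p had -0.13 (SE 0.19, adjusted p = 0.652) in Pkd1 mice. In Pkd2 mice miR-27b-5p was at 38.0, 49.1 and 39.1 CPM at P1 and at 31.6, 32.1 and 34.5 CPM at P7 (-0.36, SE 0.16, adjusted p = 0.095). The miR-27b-5p values did not pass. miR-23b-5p, the rarest member, had 0.47 (SE 0.50, adjusted p = 0.531) in Pkd1 mice and 0.05 (SE 0.32, adjusted p = 0.939) in Pkd2 mice.

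**Figure D2:**
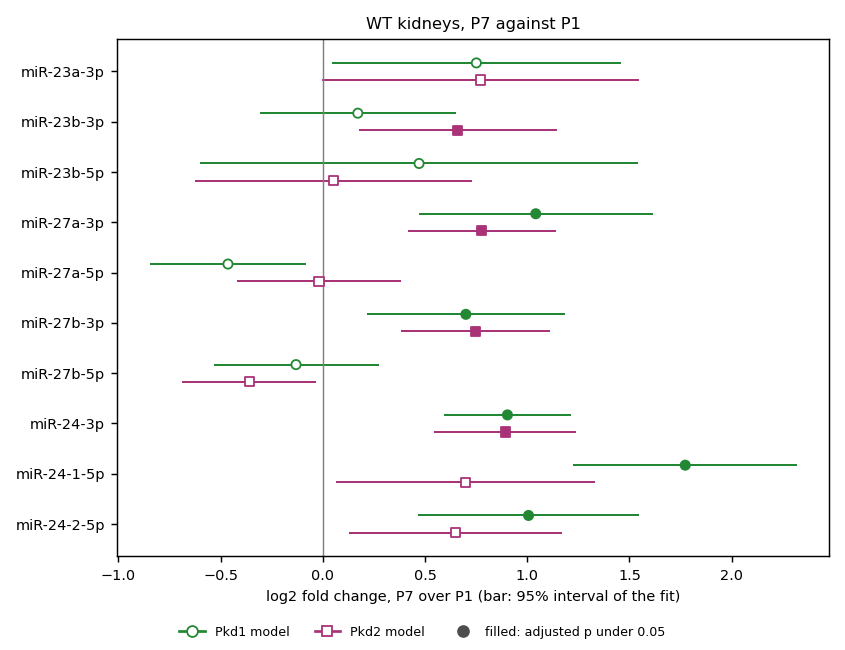
Log2 fold change of each member in WT kidneys, P7 over P1, with the 95% interval of the fit as a bar, circles for the Pkd1 model and squares for the Pkd2 model, filled where the adjusted p is under 0.05. The 9 filled points all lie to the right of 0, between 0.66 and 1.77, and miR-27a-5p and miR-27b-5p lie to its left.

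These changes are relative to the other miRNAs of a library. When libraries were scaled by their total reads alone, the median of all miRNAs moved by -0.68 (Pkd1) and -0.78 (Pkd2) from P1 to P7. No member passed then, while 136 of 706 miRNAs passed in Pkd1 and 222 of 746 in Pkd2 mice. miR-24-3p had 0.29 in Pkd1 and 0.17 in Pkd2 mice. Set against that median, miR-24-3p was higher by 0.96 and 0.95, miR-27a-3p by 1.19 and 0.88, and miR-27b-3p by 0.84 in both models. miR-10a-5p and miR-10b-5p held 62.9% to 75.1% of Pkd1 WT reads at P1 and 57.9% to 81.0% at P7. Of Pkd2 WT reads they held 44.3% to 49.7% at P1 and 42.8% to 66.4% at P7. Their part in these shifts was not tested.

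Several miRNAs known as marks of cell types moved between the same groups. In bulk kidney, a change in the number of cells of a type and a change in RNA per cell cannot be told apart. Of 6 vascular miRNAs (both arms of miR-126a, miR-143 and miR-145a) 4 rose in Pkd1 and 2 in Pkd2 mice, and their summed level in Pkd1 WT kidneys went from between 27786 and 37632 CPM to between 44717 and 85380 CPM. Of 4 nephron tubule miRNAs (miR-192-5p, miR-194-5p, miR-215-5p and miR-802-5p) 3 rose in each model, from 4603 to 6794 CPM at P1 to 12683 to 21098 CPM at P7 in Pkd1 mice. Of 5 epithelial miRNAs of the miR-200 family 2 rose in Pkd1 and 4 in Pkd2 mice. Of 4 leukocyte miRNAs (miR-142a-3p, miR-142a-5p, miR-223-3p and miR-150-5p) 4 rose in Pkd1 and 1 in Pkd2 mice. Of 5 mesenchymal miRNAs of the miR-199 and miR-214 hairpins none passed in Pkd1 mice and 1 fell in Pkd2 mice, and of 4 erythroid miRNAs 1 rose in Pkd1 mice and none passed in Pkd2 mice. The 3 muscle miRNAs passed as lower in Pkd1 mice, where their sum was 14.0, 39.8 and 1146 CPM at P1 and between 28.5 and 45.1 CPM at P7, so that the groups overlapped and 1 library stood out, and none passed in Pkd2 mice. miR-122-5p, a liver miRNA, fell in Pkd2 mice, from between 11.3 and 341 CPM to between 1.04 and 3.64 CPM. The part of these lists in the members' changes was not tested.

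Ratios of members counted in the same library do not depend on how libraries are scaled. Libraries of 1 group could still differ in them. In Pkd1 KO kidneys at P3 miR-23a-3p over miR-23b-3p was 0.202, 0.428 and 0.299. The share of miR-10a-5p and miR-10b-5p there was 31.4%, 79.8% and 40.6%. In Pkd1 WT kidneys at P7 miR-27a-3p over miR-27a-5p was 46.6, 45.4 and 102, at shares of 79.9%, 81.0% and 57.9%. The part of this share in the ratios was not tested. For 8 ratios, KO was compared with WT in each model with the 3 ages as strata (18 libraries), and P7 with P1 over both models and genotypes in 4 strata (24 libraries), which makes 24 exact two-sided permutation tests on log2 ratios, with 0.5 added to each count and Benjamini-Hochberg adjustment over the 24. Of these, 5 passed.

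The arms of the miR-27 hairpins shifted with age. In the Pkd1 WT kidneys there were 405, 468 and 648 reads of miR-27b-3p for each read of miR-27b-5p at P1 and 816, 739 and 1091 at P7. In the Pkd1 KO kidneys the ratio went from 448, 419 and 500 to 1024, 994 and 805. In the Pkd2 WT kidneys it went from 443, 373 and 416 to 773, 880 and 973, and in the Pkd2 KO kidneys from 388, 446 and 403 to 756, 593 and 504. The P7 libraries were above the P1 libraries in 4 of 4 strata. The ratio was 1.83-fold higher at P7 (log2 difference 0.88, SE 0.09, exact permutation p = 1.25e-05, the smallest that 160000 arrangements can give, adjusted p = 0.0003).

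For miR-27a the 3p over 5p ratio was 1.68-fold higher at P7 (log2 difference 0.75, SE 0.16, exact permutation p = 0.000525, adjusted p = 0.00405). It was higher in 4 of 4 strata and without overlap in 3 of them. Pkd1 WT kidneys had ratios of 20.1, 18.2 and 26.7 at P1 and 46.6, 45.4 and 102 at P7. Pkd2 KO kidneys were the stratum with overlap, with 28.8, 32.8 and 44.8 at P1 and 53.2, 27.2 and 35.98 at P7. For miR-23b, whose 5p arm had down to 1 read in a library, the log2 difference was 0.65 (SE 0.29, exact permutation, adjusted p = 0.146).

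The share of the chromosome 8 paralog also rose with age for the miR-27 and miR-23 3p arms, but the miR-24 5p arms showed no such change. Reads of miR-27a-3p that stem from miR-27b-3p cannot be separated here. How well miR-23a-3p and miR-23b-3p reads are told apart is not known. Reads of miR-27a-3p per read of miR-27b-3p were 1.21-fold higher at P7 than at P1 (log2 difference 0.28, SE 0.05, exact permutation p = 0.000675, adjusted p = 0.00405), in the same direction in 4 of 4 strata and without overlap in 2. Those of miR-23a-3p per read of miR-23b-3p were 1.42-fold higher (log2 difference 0.50, SE 0.10, exact permutation p = 0.000287, adjusted p = 0.00345), higher in 4 of 4 strata and without overlap in 3. The miR-24 pair did not pass, with -0.06 (SE 0.09, exact permutation, adjusted p = 0.918) for miR-24-2-5p over miR-24-1-5p, which ran from 4.24 to 11.4 over the libraries. Ratios of miRNAs from 1 cluster did not pass either, with -0.23 (SE 0.22, adjusted p = 0.599) for miR-27a-3p over miR-23a-3p and -0.01 (SE 0.13, adjusted p = 0.995) for miR-27b-3p over miR-23b-3p by the exact permutation test.

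**Figure D3:**
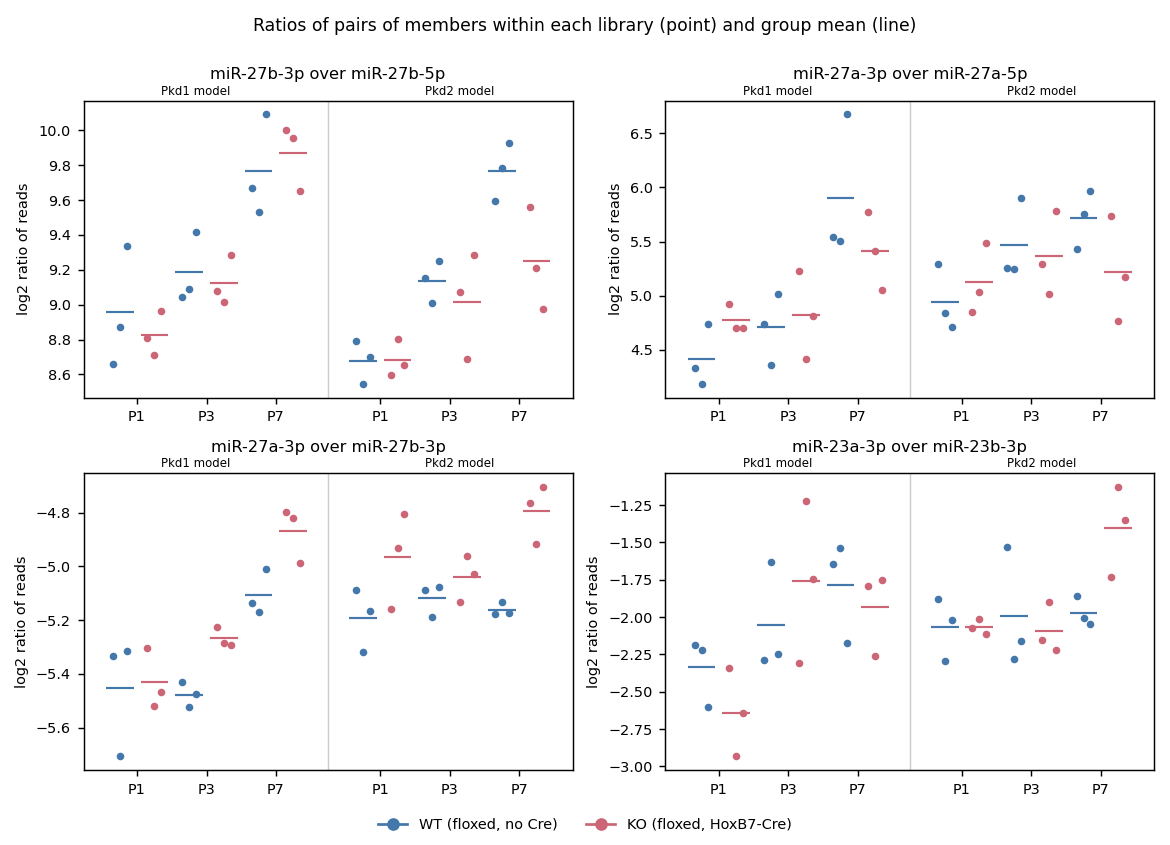
Log2 ratios of read counts within each library for 4 pairs of members, by age and model, with WT in blue, KO in red and the group mean as a line. The arm ratio of miR-27b is higher at P7 than at P1 in all 4 strata without overlap, and the ratio of miR-27a-3p to miR-27b-3p in Pkd2 kidneys is higher in the 3 KO libraries than in the 3 WT libraries at P7.

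For KO against WT kidneys no member passed edgeR's quasi-likelihood test at P1, P3 or P7 in either model. The share of all miRNAs that passed was 0% at P1 and P3 in both models, 0.425% in Pkd1 mice at P7 and 12.6% in Pkd2 mice at P7. At an unadjusted p under 0.05 the Pkd1 model had 1 member at P1, 0 at P3 and 2 at P7, against 8.36%, 9.07% and 10.2% of all miRNAs tested. Pkd2 mice had 1, 0 and 2 members, against 5.5%, 1.47% and 29%. DESeq2 gave 0 members at P1 and P3 and 1 member, miR-27a-5p, at P7 in each model. It passed 1.27%, 1.27% and 2.41% of all miRNAs at P1, P3 and P7 in Pkd1 mice and 0%, 0% and 21% in Pkd2 mice. Averaged over the ages no member passed in edgeR or DESeq2 (DESeq2 passed 0.992% and 6.17% of all miRNAs), with 1 member per model at an unadjusted p under 0.05 (5.38% and 20.5% of all miRNAs) where 0.425% and 0.402% of all miRNAs passed after adjustment.

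miR-27a-5p, the arm of the miR-27a hairpin that is mostly lost, came closest. At P7 in Pkd1 mice it was at 12.3, 16.98 and 16.98 CPM in KO and 10.6, 9.72 and 7.82 CPM in WT kidneys. The groups did not overlap, and the log2 fold change was 0.72 (SE 0.18, edgeR adjusted p = 0.0882; DESeq2 adjusted p = 0.00453). In Pkd2 mice at P7 it was at 18.4, 27.1 and 21.05 CPM in KO and 15.6, 14.9 and 14.9 CPM in WT kidneys, again without overlap, and the difference was 0.55 on the log2 scale (SE 0.19, edgeR adjusted p = 0.0681; DESeq2 adjusted p = 0.0429). Without KO replicate 1 the Pkd2 value passed in edgeR, at 0.67 with an adjusted p of 0.0401, and without KO replicate 2 it was 0.35 with an adjusted p of 0.208. At P1 and P3 its values were between 0.02 and 0.10 in the 2 models. Its adjusted p over the other settings and left-out libraries reached 0.995 in Pkd1 mice and 0.574 in Pkd2 mice.

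Among the abundant 3p arms, at P7 miR-24-3p had a log2 fold change of 0.09 (95% interval of the fit -0.22 to 0.39) in Pkd1 and 0.05 (-0.29 to 0.40) in Pkd2 mice. miR-27b-3p had -0.05 (-0.53 to 0.43) in Pkd1 mice. In Pkd2 mice miR-27b-3p was at 26663, 22305 and 19767 CPM in KO and 24472, 28303 and 33599 CPM in WT kidneys, a value of -0.33 (-0.69 to 0.03) with overlapping groups. miR-27a-3p had 0.17 (-0.39 to 0.74) and 0.04 (-0.32 to 0.40).

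miR-23b-3p at P7 was at 2189, 1974 and 1578 CPM in Pkd1 KO and 1388, 1247 and 1403 CPM in Pkd1 WT kidneys, without overlap, and higher by 0.51 on the log2 scale (SE 0.23, edgeR adjusted p = 0.437). In Pkd2 mice its value was -0.08 (SE 0.23, adjusted p = 0.861), and the difference between the models was 0.59 (SE 0.33, adjusted p = 0.469). miR-24-2-5p at P7 in Pkd2 mice was at 170, 283 and 188 CPM in KO and 152, 129 and 143 CPM in WT kidneys, a value of 0.60 (SE 0.25, adjusted p = 0.111). Without KO replicate 2, the highest library, it was 0.31 with an adjusted p of 0.426. In Pkd1 mice its value was 0.18 (SE 0.25, adjusted p = 0.914). miR-23a-3p in Pkd2 P7 KO kidneys spread from 395 to 1144 CPM around a value of 0.55 (SE 0.36, adjusted p = 0.348).

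At P1 in Pkd1 mice miR-27b-5p was at 33.7, 39.1 and 29.7 CPM in KO and 26.7, 23.96 and 22.3 CPM in WT kidneys, without overlap (log2 fold change 0.49, SE 0.19, edgeR adjusted p = 0.44). Its value in Pkd2 mice was -0.02 (SE 0.15, adjusted p = 0.981), and the difference between the models was 0.50 (SE 0.23, adjusted p = 0.724). miR-23b-5p at P1 in Pkd2 mice was at 1.45, 2.24 and 1.99 CPM in KO and 0.796, 1.02 and 1.25 CPM in WT kidneys (0.88, SE 0.30, adjusted p = 0.819), which rests on few reads. Members whose groups did not overlap numbered 3 at P1, 0 at P3 and 2 at P7 in Pkd1 mice, where 19.8%, 11.9% and 16.3% of all miRNAs did not overlap. In Pkd2 mice they numbered 2, 1 and 3, against 13.5%, 4.69% and 25.2%.

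**Figure D4:**
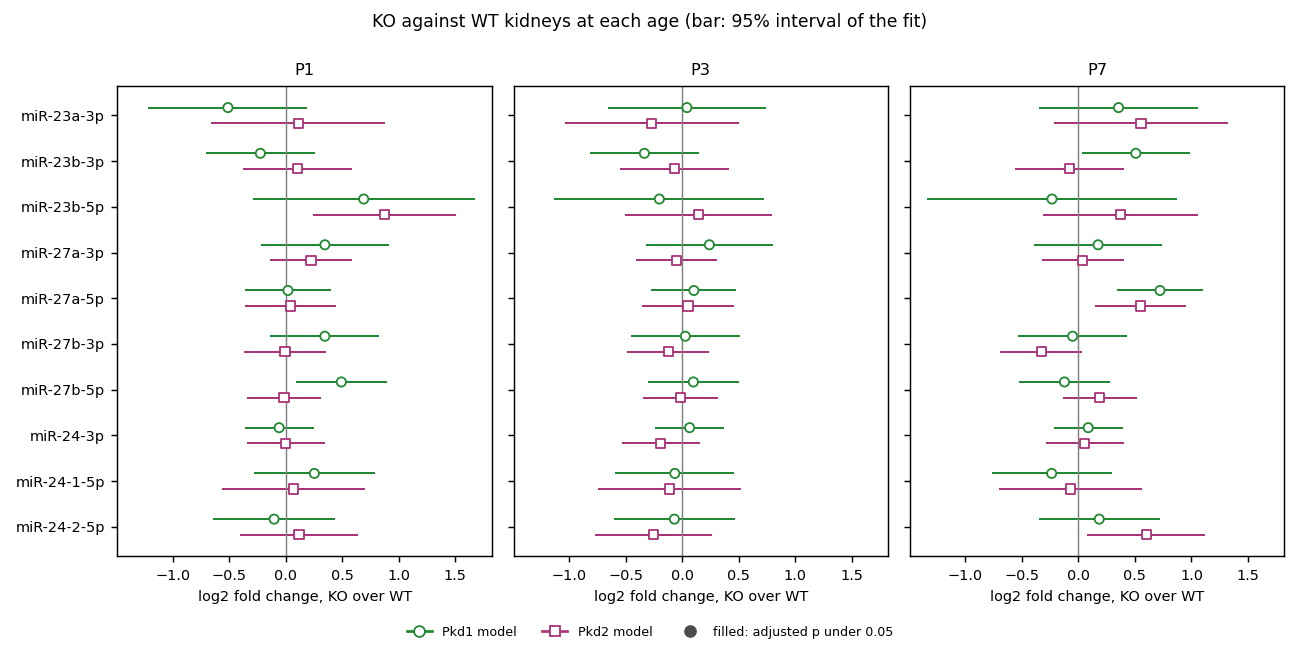
Log2 fold change of each member, KO over WT, at P1, P3 and P7, with the 95% interval of the fit as a bar, circles for the Pkd1 model and squares for the Pkd2 model. No point is filled, since no adjusted p was under 0.05, and miR-27a-5p at P7 lies at 0.72 and 0.55 with intervals to the right of 0 in both models.

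No member passed the test of whether the KO effect changed from P1 to P7, where 0.142% of all miRNAs passed in Pkd1 mice and 0.536% in Pkd2 mice. At an unadjusted p under 0.05 there were 3 members in Pkd1 mice (12% of all miRNAs), miR-23b-3p with 0.73, miR-27a-5p with 0.70 and miR-27b-5p with -0.61 (edgeR adjusted p from 0.366 to 0.396), and 0 in Pkd2 mice (16.9% of all miRNAs). No member passed for the difference between the models at P1, P3 or P7, where 0%, 0% and 0.387% of all miRNAs passed. At an unadjusted p under 0.05 there were 1, 0 and 0 members, against 6.32%, 5.03% and 12%. DESeq2 gave 0 members in each of these tests, and passed 0.708% and 4.42% of all miRNAs for the change of the KO effect from P1 to P7 in Pkd1 and Pkd2 mice and 1.03%, 0% and 0.516% for the difference between the models at P1, P3 and P7.

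Within libraries, 1 ratio passed the test for KO against WT. In Pkd2 mice there were 1.17-fold more reads of miR-27a-3p per read of miR-27b-3p in KO than in WT kidneys over the ages. The log2 difference was 0.22 (SE 0.05, exact permutation p = 0.003, adjusted p = 0.0144). With same-numbered libraries as blocks it was also 0.22 but did not pass (exact permutation, adjusted p = 0.0804). Reads of miR-27a-3p that stem from miR-27b-3p, as described above, cannot be separated in this ratio. At P7 the ratio was 0.0368, 0.0331 and 0.0384 in KO and 0.0276, 0.0285 and 0.0277 in WT kidneys, which did not overlap. At P1 it was 0.0280, 0.0328 and 0.0357 in KO and 0.0294, 0.0251 and 0.0279 in WT kidneys, and at P3 0.0285, 0.0321 and 0.0306 against 0.0294, 0.0275 and 0.0296, with overlap at both ages. In Pkd1 mice the log2 difference was 0.16 (SE 0.06, exact permutation, adjusted p = 0.073). There the KO libraries were above the WT libraries at P3, with 0.0267, 0.0257 and 0.0255 against 0.0232, 0.0217 and 0.0225, and at P7, with 0.0360, 0.0354 and 0.0316 against 0.0285, 0.0278 and 0.0310. The KO mean was higher in 3 of 3 ages in each model. The difference between the models was not tested.

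The Pkd2 KO kidneys at P7 also differed in other miRNAs. Of the 4 nephron tubule miRNAs 3 fell, from between 17244 and 29525 CPM summed in WT to between 6911 and 14847 CPM in KO, and 1 of 4 erythroid miRNAs rose, from 2661 to 3316 CPM summed to 4355 to 6919 CPM. Of the 5 epithelial miRNAs 2 rose, while the median log2 fold change of the 5 was -0.12 and their sum was 7362 to 7741 CPM in KO and 7409 to 8221 CPM in WT kidneys, and none of the vascular, mesenchymal, leukocyte, muscle or liver miRNAs passed. In Pkd1 mice at P7 no miRNA of these lists passed, and the nephron tubule sum was 9937 to 10843 CPM in KO and 12683 to 21098 CPM in WT kidneys. Their part in the ratio of miR-27a-3p to miR-27b-3p was not tested. No other ratio passed for KO against WT. The closest was miR-23b-3p over miR-23b-5p in Pkd2 mice, with -0.51 (SE 0.21, exact permutation, adjusted p = 0.0891).

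Over the 36 libraries members of the same name on different chromosomes moved alike. Pearson's r of log2 normalised CPM, given as a description since points share model, age, genotype and library scaling, was 0.83 for miR-27a-3p with miR-27b-3p, 0.78 for miR-23a-3p with miR-23b-3p and 0.75 for miR-24-1-5p with miR-24-2-5p. It was 0.38 for miR-23b-3p with miR-27b-3p and 0.34 for miR-23a-3p with miR-27a-3p, pairs from 1 cluster each. Another pair from the chromosome 8 cluster, miR-23a-3p with miR-24-2-5p, had 0.73. Likeness was not limited to the same name, since miR-24-3p had 0.76 with miR-23b-3p and 0.75 with miR-23a-3p. Between the arms of a hairpin r was -0.02 for miR-27a, -0.11 for miR-27b and -0.43 for miR-23b, whose 5p arm rests on few reads. Reads shared through near-identical sequence can add to the value of 0.83. Whether this also holds for miR-23a-3p with miR-23b-3p was not examined, since miR-23b-3p had no sequence entry.

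Among the 315 other miRNAs with a mean of at least 10 CPM, the pattern of miR-27b-3p was most like those of miR-181c-5p (r 0.90), miR-192-5p (0.89) and miR-1839-5p (0.86) over the 36 libraries. For miR-27a-3p they were miR-145a-3p (0.88), miR-22-5p (0.86) and miR-141-3p (0.86). For miR-23a-3p they were miR-155-5p (0.87), miR-221-5p (0.86) and miR-145a-5p (0.86), and for miR-23b-3p miR-221-3p (0.86), miR-103-3p (0.81) and miR-10b-5p (0.80). miR-24-3p was most like miR-221-3p (0.83), miR-195a-5p (0.80) and miR-185-5p (0.79). miR-221-3p thus heads the list of miR-23b-3p and that of miR-24-3p.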

How the data were processed

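Small RNA reads from 36 kidney libraries were trimmed by the authors, who kept reads longer than 17 bases and aligned them with miRDeep2 to mm10 and miRBase release 21. The submitters' processing notes also name CASAVA 1.8.2 and HTSeq. The deposited values are raw read counts of 2061 pairs of mature miRNA and hairpin. Where a mature miRNA stood under several hairpins, its row with the most reads was kept, which left 1915. Libraries held 12569939 to 32663566 reads, and 3 reads corresponded to 0.0562 to 0.391 CPM, counting error only.

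Counts were fitted with edgeR 4.0.16 in R 4.3.3 (quasi-likelihood F-test, trimmed mean of M values (TMM) factors, at least 10 counts in at least 3 libraries, Benjamini-Hochberg over all miRNAs tested, threshold 0.05), over the 18 libraries of each model, or all 36 with 775 miRNAs for differences between models and for correlations. All 10 members passed the filter in each fit. The scripts were tested on simulated data. Alternatives were DESeq2 1.42.0, other scalings, no filter, the compared libraries alone, a replicate block and leaving out each library. Replicate pairs differed beyond counting noise (smallest chi-square per degree of freedom 38.0).

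The labels do not state that libraries of a group come from separate animals, so p-values measure the spread between libraries. Sex and batch are not in the labels. Pkd1 and Pkd2 mRNA were not analysed here. Members and lists were chosen with earlier results of these data known. The text names the members, miR-23a-5p, the marker lists and, for each 3p member, the 3 miRNAs of most similar pattern. The miR-10 pair was named after its values were seen.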

Additional observations from a re-analysis of the deposited data

How the results depend on the processing

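For WT kidneys at P7 against P1, scaling by library totals alone gave 0 members in both models. Of all miRNAs, 136 of 706 passed in Pkd1 and 222 of 746 in Pkd2 mice. In the Pkd2 model miR-23b-3p was at -0.10, miR-24-1-5p at -0.0083 and miR-24-2-5p at -0.078, and the median of all miRNAs was -0.78. Fitting the compared libraries alone gave 3 members in Pkd1 mice and 7 in Pkd2 mice, where 53 of 549 and 247 of 673 miRNAs passed; the cause was not tested. Leaving out 1 library gave 3 to 5 members in Pkd1 mice and 3 to 4 in Pkd2 mice. Pkd1 mice had 3 without replicate 2 of P1 WT, where 121 of 706 miRNAs passed, and without replicate 3 of P7 WT. Without replicate 1 of P1 WT they had 4, where 102 of 698 miRNAs passed. Without replicate 3 of P1 WT they had 5, where 162 of 704 passed. The shares of all miRNAs with other libraries left out are not given here. At P7, KO against WT gave 1 member with DESeq2 in each model, and 0 to 1 in the Pkd2 model with 1 library left out. The ratio tests passed 5 to 6 of 24 with 1 library left out. Same-numbered WT and KO libraries did not deviate together in a steady way (r from -0.48 to 0.51, over 0.1 in 7 of 18 pairs). With 3 libraries per group this cannot settle whether the numbers are pairs, and the labels do not say. With the replicate block miR-27a-3p over miR-27b-3p in the Pkd2 model kept its log2 difference of 0.22 with an adjusted p of 0.0804, and 4 ratio tests passed. With the block 5 members passed in Pkd1 and 4 in Pkd2 mice in WT at P7 against P1, where 110 of 706 and 199 of 746 miRNAs passed. Of the counts recomputed 276 stayed within 1.5 times and 9 did not. The 276 include counts of 0 that stayed 0, so this tally does not show how steady the WT age counts were. Those counts moved further with library totals alone and with the compared libraries alone in both models. In Pkd1 mice they also did so with some libraries left out.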
